A study of Mus musculus with 40 samples.

Results

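The 10 genes described here encode enzymes and a chaperone that prepare collagen for the extracellular matrix: the lysyl oxidases Lox, Loxl1, Loxl2, Loxl3 and Loxl4, the lysyl hydroxylases Plod1 and Plod2, the prolyl 4-hydroxylase subunits P4ha1 and P4ha2, and the collagen chaperone Serpinh1 (HSP47). They were picked by name, as genes of known function in collagen processing, and each has 1 row in the deposited count table. All 10 passed the filter on low counts, among 20297 tested genes of 55487 listed.

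The libraries came from whole liver of female mice of the C57BL/6JBomTac background that lacked NAMPT in hepatocytes (HNKO, Nampt fl/fl with Alb-Cre+/-) or carried the floxed alleles without Cre (WT). NAMPT makes the NAD+ precursor nicotinamide mononucleotide from nicotinamide. The mice were 9 weeks old and, after a fortified breeding chow from weaning, were fed a purified control diet (PD); the feeding lasted 3, 6, 12 or 21 days, which the labels give as an age. Rested on here are 38 libraries: 5, 4, 5 and 5 of WT and 5, 5, 6 and 3 of HNKO at days 3, 6, 12 and 21, each named by genotype and the library number in its label. The days occur in order over numbers 1 to 21 and again over 22 to 41, and these runs are called the 2 number series here; the division is read from the numbers alone, since the labels name no batch. A further 2 HNKO libraries of day 21, numbers 17 and 18, are described by the submitters as having failed quality control and were left out.

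The albumin promoter drives Cre in hepatocytes; recombination in other liver cells, bile duct cells among them, was not measured here. Nampt RNA was lower in HNKO at each day, by 0.93, 0.90, 0.82 and 0.69 on the log2 scale, and the difference was past the threshold at days 3, 6 and 12 (edgeR quasi-likelihood test, adjusted p of 0.0193, 0.0128, 0.0208 and 0.161). Every HNKO library lay below every WT library at days 3, 12 and 21. The 38 libraries held between 16151037 and 64181492 counts, with a median of 26466478.5. In bulk RNA, fewer cells of a type and less RNA per cell cannot be told apart.

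Collagen chains are modified while they enter the endoplasmic reticulum. Prolyl 4-hydroxylases make the hydroxyproline that holds the triple helix together, lysyl hydroxylases modify lysines of the helix and of the end peptides, and HSP47 binds the folded helix in the endoplasmic reticulum, accompanies it towards the Golgi and returns. Outside the cell, the copper-dependent lysyl oxidases oxidise lysines and hydroxylysines of collagen and elastin, and the resulting aldehydes form the covalent crosslinks that stiffen a fibre. In the liver, activated hepatic stellate cells and portal fibroblasts are the usual source of fibrillar collagen, and lysyl oxidases are studied there for their part in the crosslinking of fibrotic scars.

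The 5 lysyl oxidases share a catalytic domain with a copper-binding stretch of 11 codons, which is shown to compare 3 oxidases whose RNA was called higher in HNKO with Loxl4, whose RNA was not. In each gene the stretch runs across the junction of 2 coding exons, so the coordinates (GRCm38, GENCODE M21) span an intron: exons 3 and 4 of 7 in Loxl1, 10 and 11 of 14 in Loxl2 and in Loxl3, and 11 and 12 of 15 in Loxl4. The capitals mark the codons of the 3 histidines that hold the copper.
Loxl1, chr9:58293720-58294381, minus strand: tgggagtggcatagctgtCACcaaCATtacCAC
Loxl2, chr14:69682316-69689037, plus strand: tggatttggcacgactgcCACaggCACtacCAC
Loxl3, chr6:83049995-83050125, plus strand: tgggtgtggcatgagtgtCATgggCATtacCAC
Loxl4, chr19:42598807-42599899, minus strand: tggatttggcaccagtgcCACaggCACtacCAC
Loxl2 and Loxl4 had the same base at 31 of 33 positions, against 25 for Loxl3 with each of the other 3, 22 for Loxl1 and Loxl2, and 21 for Loxl1 and Loxl4. The uncalled Loxl4 was thus close to Loxl2 alone.

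Levels are first compared between genes per exon length, as CPM (the count scaled to the library's size) divided by the kilobases of exon in the annotation. In WT liver Plod1 had the highest level, with a median of 6.50 CPM per kb over 19 libraries (5.75 to 7.79), followed by Serpinh1 at 5.19 (2.86 to 8.21) and P4ha1 at 3.44 (2.55 to 4.32). Loxl4 was the most abundant oxidase RNA, at 1.57 CPM per kb (0.896 to 4.12). The others were lower: 0.667 for Loxl3, 0.621 for Loxl2, 0.601 for P4ha2, 0.498 for Loxl1, 0.265 for Plod2 and 0.0955 for Lox, whose highest WT library reached 0.231. The ranges of all neighbours in this order overlapped, while those of Plod1 and P4ha1, and those of P4ha1 and Loxl3, did not. In HNKO liver Serpinh1 came first, at a median of 9.05 CPM per kb over 19 libraries (4.85 to 25.4), and Plod1 second, at 6.68 (5.75 to 8.07). Lox remained the lowest, at 0.354 (0.0924 to 1.75).

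**Figure D1:**
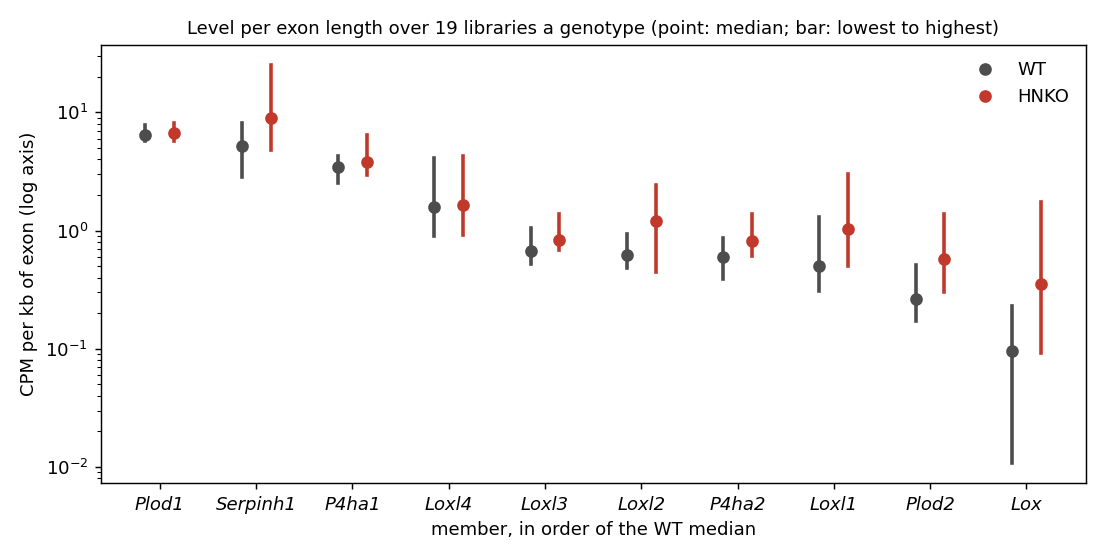
Level of each member in CPM per kb of exon, on a log axis, with the median (point) and the lowest to highest library (bar) over 19 WT and 19 HNKO libraries of all days. Plod1 and Loxl4 had near-equal medians in both genotypes (6.50 and 6.68, 1.57 and 1.66), while the HNKO median of Lox was 0.354 against 0.0955 in WT.

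At each day HNKO was compared with WT in 1 edgeR quasi-likelihood fit over the 38 libraries, and a gene was called at a Benjamini-Hochberg adjusted p under 0.05 over the 20297 tested genes. At day 3, 2 of the 10 genes were higher in HNKO (Plod2 and P4ha2), where 2.95% of all tested genes were called higher and 1.71% lower. At day 6, 6 were higher (Lox, Loxl1, Loxl2, Loxl3, Plod2 and Serpinh1), against 8.42% of all genes higher and 4.37% lower. At day 12 only Plod2 was called among the 10, against 4.56% higher and 3.27% lower, and at day 21 Lox, Loxl1, Loxl2 and Loxl3 were called higher, against 2.21% higher and 0.916% lower. No member was called lower at any day; those with a negative estimate were Loxl4 at days 6 and 12 and Plod1 at days 3, 12 and 21.

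The median log2 fold change of the 10 genes was 0.83, 0.96, 0.48 and 0.96 at days 3, 6, 12 and 21, beside a median over all tested genes between -0.01 and 0.01. Every HNKO library lay above every WT library for 1, 7, 0 and 4 members at the 4 days in turn, and for 2.31%, 8.08%, 2.65% and 7.25% of the 20297 genes. The 7 members of day 6 were Lox, Loxl1, Loxl2, Loxl3, Plod2, P4ha1 and Serpinh1.

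**Figure D2:**
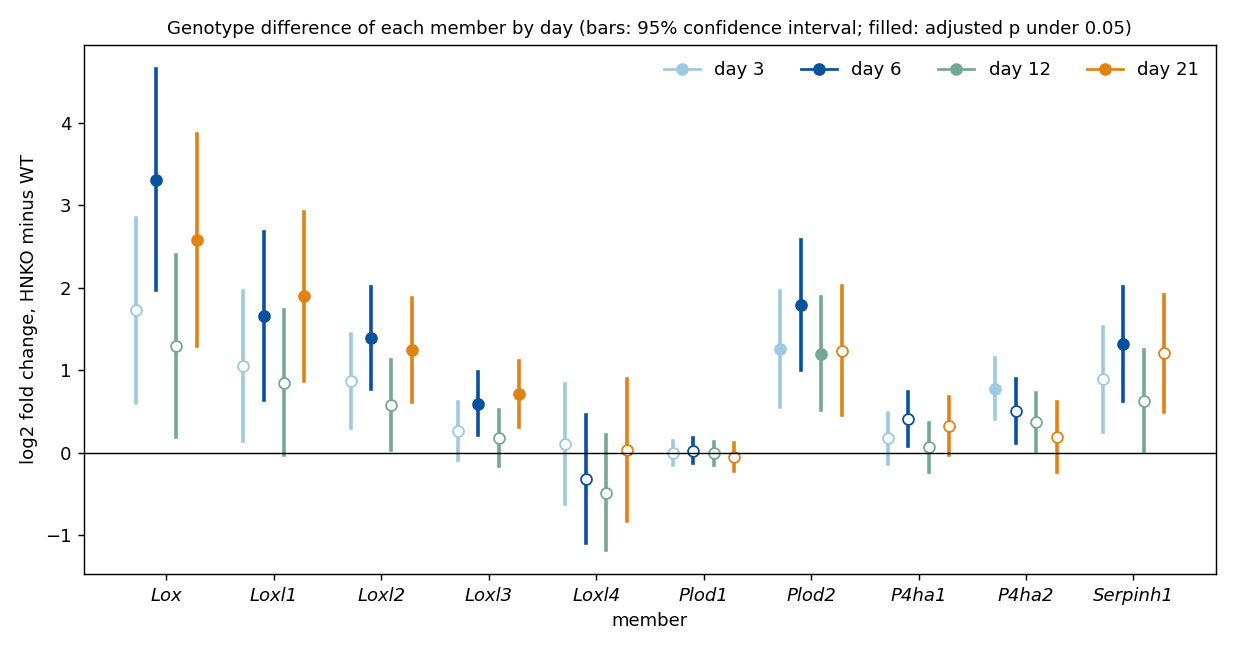
Log2 fold change of HNKO minus WT for each member at each day, with 95% confidence intervals from the edgeR fit; filled points have an adjusted p under 0.05. Lox reached 3.31 at day 6, Plod2 lay between 1.20 and 1.79 at every day, and the intervals of Plod1 stayed within -0.22 and 0.18.

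Lox, the founding lysyl oxidase, had the widest genotype difference of the set and the lowest counts, between 1 and 358 per library. At day 6 its log2 CPM in the 4 WT libraries was -1.11, -3.02, -0.72 and -1.02 (WT 8, 10, 27 and 28). The 5 HNKO libraries of that day read 0.27, 2.12, 3.07, 0.83 and 1.11 (HNKO 6, 7, 29, 30 and 31). All HNKO libraries were above all WT libraries, and HNKO 29 stood highest. The fold change was 9.95, or 3.31 ± 0.66 on the log2 scale (SE, adjusted p = 0.00108), and it was 2.72 on that scale without HNKO 29. WT 10 held a single read of the gene, so the lower end of the WT range rests on very few counts.

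At day 21 the WT libraries gave -1.70, -1.54, -1.60, -0.45 and -0.60 log2 CPM of Lox (WT 19, 20, 21, 39 and 41), and the 3 HNKO libraries 2.30, -0.96 and 0.82 (HNKO 37, 38 and 40). Here the groups overlapped, because HNKO 38 lay within the WT range. The fitted difference was 2.58 ± 0.63 (SE, adjusted p = 0.0199). Without HNKO 37 it was 1.50 and no longer called, as in 3 of the 8 fits with 1 library left out; with the groups of the day alone its adjusted p was 0.0519. At days 3 and 12 Lox was 3.32-fold and 2.45-fold higher in HNKO and missed the threshold (adjusted p = 0.0595 and 0.132); with the number series as a covariate, day 3 passed it (adjusted p = 0.0406). At day 3 the HNKO libraries spread from -0.17 to 2.37 log2 CPM (SD 1.09, n = 5), and at day 12 they lay close together, from -0.02 to 0.89 (SD 0.31, n = 6), with 5 of 6 above all WT libraries.

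Loxl1, an oxidase best known for elastic fibre upkeep, showed 3.15-fold more RNA in HNKO at day 6. The WT libraries of that day were close to each other, at 0.78, 0.44, 0.62 and 0.78 log2 CPM, and the HNKO libraries spread over 1.598, 3.29, 2.72, 1.54 and 0.82. The lowest HNKO library, HNKO 31, was only just above the highest WT library. The difference was 1.66 ± 0.50 on the log2 scale (adjusted p = 0.0256), and 6 of the 9 fits that each left out 1 library of that day ended the call. At day 21 it was 1.90 ± 0.51 (adjusted p = 0.0331), again with no overlap between the groups. Without HNKO 37 it was 0.997, and 5 of the 8 fits with 1 library left out ended the call. At days 3 and 12 it was 1.05 and 0.85 (adjusted p = 0.163 and 0.22).

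Loxl2, which also crosslinks the collagen IV of basement membranes, was called at days 6 and 21. At day 6 its WT libraries had 1.81, 2.20, 1.56 and 1.42 log2 CPM and its HNKO libraries 2.72, 3.32, 3.73, 3.18 and 2.40. None overlapped, and the call held in all 9 fits with 1 library left out (1.39 ± 0.31, adjusted p = 0.00259 over all libraries). At day 21 the difference was 1.25 ± 0.31 (adjusted p = 0.0226), with WT between 1.42 and 1.89 and HNKO between 2.64 and 3.38, and it was not called without HNKO 37 (0.99) or without WT 19 (1.18). At days 3 and 12 it was 0.87 and 0.58 (adjusted p = 0.062 and 0.176). Of the stretches of 51 bases, the read length, in the exons of Loxl2, 42.9% also occur in the pseudogene Gm21451, which held at most 1 count in any library; how reads from these stretches were assigned was not tested.

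Loxl3 differed less. At day 6 the WT libraries held 1.77, 1.91, 1.65 and 1.61 log2 CPM and the HNKO libraries 1.94, 2.43, 2.69, 2.33 and 2.12, so the groups were separated by a narrow gap. The fold change was 1.51 at day 6 and 1.63 at day 21 (log2 0.60 ± 0.19 and 0.71 ± 0.20, adjusted p = 0.0307 and 0.0401), and 1.20 and 1.13 at days 3 and 12. Of the fits with 1 library left out, 5 of 9 at day 6 and 6 of 8 at day 21 ended the call. Exons of Loxl3 share 535 bases with Htra2 on the opposite strand, a gene with a median of 188 counts against 90.5 for Loxl3. The submitters' counting is not stated to use strand, and Htra2 itself differed by -0.02 at day 6 and -0.05 at day 21 on the log2 scale (adjusted p = 0.931 and 0.883).

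Loxl4 was not called at any day. At day 6 its WT libraries fell into a low pair, 1.94 and 2.32 log2 CPM (WT 8 and 10), and a high pair, 4.12 and 3.81 (WT 27 and 28). The HNKO libraries of the day read 2.65, 1.99, 4.17, 2.57 and 2.60. Both genotypes thus spanned about the same range, with an SD of 1.08 and 0.82. The low WT pair belongs to the first and the high pair to the second number series. The HNKO libraries did not divide this way. HNKO 6 and 7 of the first series were at 2.65 and 1.99, and HNKO 29, 30 and 31 of the second at 4.17, 2.57 and 2.60. The fitted difference ran from -0.48 ± 0.34 at day 12 to 0.11 ± 0.36 at day 3, with a 95% interval of -1.09 to 0.46 at day 6 and of -1.18 to 0.21 at day 12. Whether Loxl4 differed from the other oxidases in its genotype effect was not tested.

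**Figure D3:**
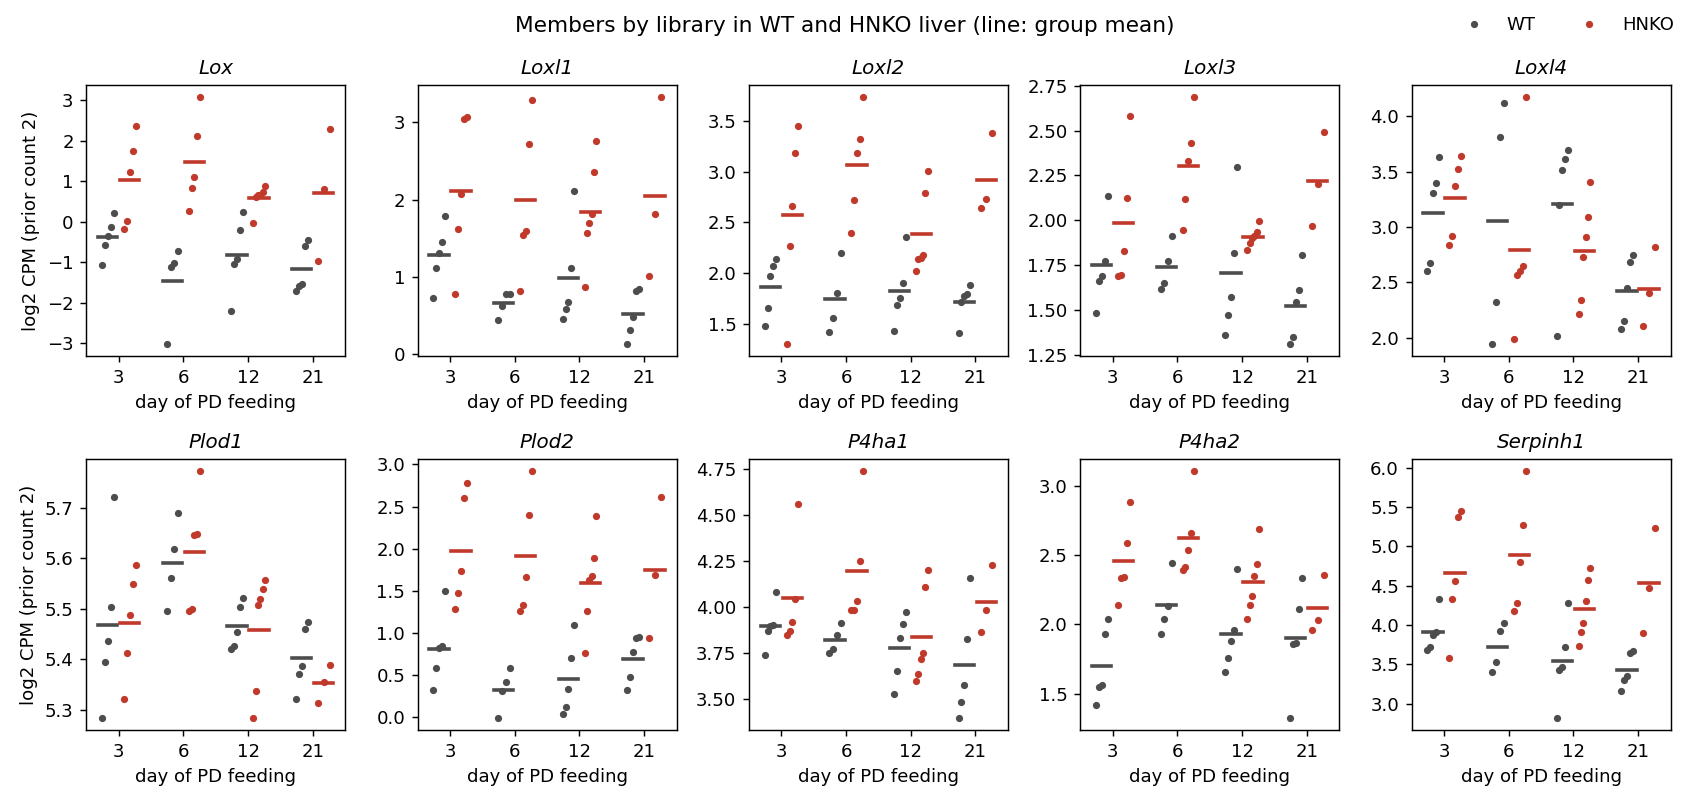
Log2 CPM of each member in each library (points) with the group mean (line), WT in grey and HNKO in red, by day of PD feeding; the vertical scale differs between panels. For Lox, Loxl1, Loxl2, Plod2 and Serpinh1 the HNKO libraries of a day had a larger SD than the WT libraries at days 3, 6 and 21, by the least for Lox at day 6 (1.11 and 1.05). At day 12 the HNKO SD was smaller for Lox (0.31 and 0.93), Loxl1 (0.66 and 0.68) and Serpinh1 (0.39 and 0.53). It was larger for Loxl2 (0.41 and 0.34) and Plod2 (0.55 and 0.44).

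Plod2, which hydroxylates the lysines of the collagen end peptides and so sets the type of crosslink that forms, was the only member called at 3 of the 4 days. At day 3 its WT libraries had 0.84, 0.33, 0.58, 0.82 and 1.50 log2 CPM and its HNKO libraries 2.60, 1.74, 1.47, 1.29 and 2.78. Here HNKO 4 and HNKO 22 lay below WT 26, the highest WT library, and the other 3 above it. The fold change was 2.38 (log2 1.25 ± 0.35, adjusted p = 0.0318), and 6 of the 10 fits with 1 library left out ended the call, as did a fit of the day's groups alone (adjusted p = 0.0673).

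At day 6 the WT libraries of Plod2 were at 0.59, -0.01, 0.31 and 0.42 log2 CPM and the HNKO libraries at 1.26, 2.39, 2.92, 1.33 and 1.66. These groups were well apart, with a 3.45-fold difference (log2 1.79 ± 0.39, adjusted p = 0.00233) that stayed called in each of the 9 fits with 1 library left out. At day 12 HNKO spanned 0.77 to 2.38 with a median of 1.65 in 6 libraries, and 5 of them lay above all 5 WT libraries (1.09, 0.12, 0.04, 0.70 and 0.33). That difference was 1.20 ± 0.34 (adjusted p = 0.0259), not called in 4 of the 11 fits with 1 library left out, and at day 21 it was 1.24 ± 0.39 (adjusted p = 0.0667), or 0.70 without HNKO 37. A difference between the days was not shown, since the interaction of genotype and day had an unadjusted edgeR p of 0.646. Exons of Plod2 share 346 bases with Gm38391 on the opposite strand, which had a median of 5 counts against 54.5 for Plod2 and differed by 1.15, 0.55, 0.48 and 0.18 at the 4 days (adjusted p = 0.16, 0.515, 0.509 and 0.916).

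Plod1, the lysyl hydroxylase of the helix, had nearly the same level in both genotypes. Over all days the WT libraries lay between 5.28 and 5.72 log2 CPM and the HNKO libraries between 5.28 and 5.77. The differences were -0.0011, 0.0241, -0.0049 and -0.0517 at days 3, 6, 12 and 21, with an SE of 0.07 to 0.08. The widest interval, at day 21, ran from -0.22 to 0.12 on the log2 scale. Plod1 held 727 to 2890 counts a library, and its standard errors were the smallest of the set at each day.

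P4ha1 and P4ha2 encode alternative catalytic subunits of prolyl 4-hydroxylase. P4ha2 was higher in HNKO at day 3, where the WT libraries had 1.56, 2.04, 1.93, 1.55 and 1.42 log2 CPM and the HNKO libraries 2.34, 2.88, 2.14, 2.35 and 2.59. Each HNKO library was above each WT library. The difference was 0.78 ± 0.18 (1.71-fold, adjusted p = 0.0127), and at days 6, 12 and 21 it was 0.51, 0.38 and 0.19 (adjusted p = 0.0787, 0.171 and 0.696). With the number series as a covariate, P4ha2 was called at day 6 too (0.54, adjusted p = 0.0412). The falling order of these estimates is not a tested trend, since the interaction of genotype and day had an unadjusted edgeR p of 0.197.

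P4ha1, with more RNA than P4ha2 per exon length, was not called at any day. At day 6 the WT libraries were at 3.75, 3.91, 3.85 and 3.77 log2 CPM and the HNKO libraries at 3.99, 3.98, 4.74, 4.25 and 4.03. The groups did not overlap, yet the fitted difference of 0.41 ± 0.16 missed the threshold (adjusted p = 0.0946), and it was 0.26 without HNKO 29. At the other days it lay between 0.06 and 0.33.

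Serpinh1 was higher in HNKO at day 6 and had the highest HNKO level per exon length. The WT libraries of day 6 read 3.53, 3.40, 3.92 and 4.02 log2 CPM, and the HNKO libraries 4.17, 5.27, 5.96, 4.80 and 4.28. The lowest HNKO library was close above the highest WT library, and HNKO 29 reached the highest level of the whole set. The fold change was 2.49 (log2 1.32 ± 0.34, adjusted p = 0.00917), and without HNKO 29 it was 0.98 on the log2 scale with an adjusted p of 0.069. At day 21 WT spanned 3.16 to 3.67 and HNKO 3.89, 4.47 and 5.23. That difference, 1.20 ± 0.35, lay just outside the threshold (adjusted p = 0.0508) although the groups did not overlap. It passed under 6 of the other settings, DESeq2 among them (adjusted p = 0.0236), and was 0.80 without HNKO 37. At days 3 and 12 it was 0.89 and 0.63 (adjusted p = 0.0871 and 0.187).

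Promoter sequences from RefSeq (GRCm38.p6, 250 bases before to 50 after the annotated start) were at hand for 5 of the 10 members: Loxl4, Plod1, P4ha1, P4ha2 and Serpinh1. Shown are those of Serpinh1 and P4ha2, which were called higher at 1 day each, and of Plod1, which had the smallest differences. The capitals mark the hypoxia response core (ACGTG or GCGTG), the heat shock element (GAANNTTC) and the TATA box (TATAAA), each searched on both strands and counted independently of any overlap with another.
Serpinh1 promoter, chr7:99353190-99353489, minus strand: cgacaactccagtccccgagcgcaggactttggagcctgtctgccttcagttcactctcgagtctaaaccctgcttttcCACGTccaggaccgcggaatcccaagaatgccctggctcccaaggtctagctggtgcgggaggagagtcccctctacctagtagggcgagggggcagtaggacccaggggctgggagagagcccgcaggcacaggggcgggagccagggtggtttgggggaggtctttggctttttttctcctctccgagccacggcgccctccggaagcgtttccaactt
P4ha2 promoter, chr11:54100674-54100973, plus strand: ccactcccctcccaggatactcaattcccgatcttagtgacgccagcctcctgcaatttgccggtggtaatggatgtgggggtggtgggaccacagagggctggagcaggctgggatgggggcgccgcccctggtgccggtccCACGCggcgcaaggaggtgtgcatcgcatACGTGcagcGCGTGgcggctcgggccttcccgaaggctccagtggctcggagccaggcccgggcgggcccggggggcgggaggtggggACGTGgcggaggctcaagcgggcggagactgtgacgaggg
Plod1 promoter, chr4:147936727-147937026, minus strand: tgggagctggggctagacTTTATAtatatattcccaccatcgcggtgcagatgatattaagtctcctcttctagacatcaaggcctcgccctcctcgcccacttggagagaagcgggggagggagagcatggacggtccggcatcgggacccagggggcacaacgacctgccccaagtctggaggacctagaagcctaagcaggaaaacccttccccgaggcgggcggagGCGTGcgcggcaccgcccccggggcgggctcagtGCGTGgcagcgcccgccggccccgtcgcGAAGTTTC
A hypoxia response core was found once in the Serpinh1 window, starting at position -171 from the annotated start, 4 times in that of P4ha2 and 2 times in that of Plod1, as well as 3 times for P4ha1 and once for Loxl4. So each of the 5 windows held it, whether or not the gene differed between the genotypes, and 43.8% of all 32851 promoters in the table did. The heat shock element was found only in Plod1 (7.86% of all promoters), and the TATA box letters in Plod1 and P4ha1 (13.6%), starting at positions -232 and 40. The GC box (GGGCGG, 35.7% of all promoters) was present in each of the 5, between 1 and 4 times, and neither CCAAT (37.4%) nor the AP-1 site (TGACTCA, 5.2%) was found in any of them.

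Leaving out a single library changed several of these calls. At day 6, 3 members were called without HNKO 29 (Lox, Loxl2 and Plod2), 4 without HNKO 7, WT 8, WT 27 or WT 28, and 5 or 6 without any other library. At day 21 no member was called by edgeR without HNKO 37 or without WT 19, 2 were called without WT 20, WT 21 or WT 41, and 6 without HNKO 38, which added Plod2 and Serpinh1. The call of Plod2 at day 12 was lost without HNKO 13, WT 15, WT 16 or WT 34, with an adjusted p between 0.054 and 0.079. At day 3, 5 members were called without HNKO 22 and 4 without HNKO 4, while Plod2 was lost without any of WT 1, WT 5, WT 24, WT 25, HNKO 2 and HNKO 23, and P4ha2 without HNKO 3. With libraries 17 and 18 in the fit, no member was called at day 3 or day 12. The share of all tested genes called in these fits was not computed, so whether the losses are particular to the members is not known.

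Within a genotype only day 21 was compared with day 3, and no member changed past the threshold. Between day 21 and day 3, 3.28% of all tested genes were called higher and 1.67% lower in WT, and 1.18% and 1.25% in HNKO, with 0 of the 10 members in each. The largest estimates were -0.92 ± 0.61 for Lox and -0.81 ± 0.47 for Loxl1 in WT (adjusted p = 0.421 and 0.331), and -0.83 ± 0.43 for Loxl4 in HNKO (adjusted p = 0.32). The interaction of genotype and day was called for 0 of 20297 genes (0%) by edgeR, while 966 genes had an unadjusted p under 0.05, none of them a member. The lower number of members called at day 12 is therefore not shown to be a smaller genotype effect.

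The other genes of collagen processing and crosslinking that were examined numbered 33, of which 31 were tested (P4ha3 and Tll2 had too few counts). Among them 6, 12, 1 and 3 were called higher in HNKO at days 3, 6, 12 and 21, beside 2.95%, 8.42%, 4.56% and 2.21% of all tested genes, and 1 lower (Mia2, an export factor, at day 6 by 0.37 on the log2 scale). Their median log2 fold change was 0.26, 0.63, 0.19 and 0.27. Of the 10 tested genes of hydroxylation and glycosylation, 3 were called higher at day 6, of which P3h2, a prolyl 3-hydroxylase, differed most (0.87 ± 0.26, adjusted p = 0.0209).

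Of the 9 genes of folding and export, 3 were called higher at day 6, led by Fkbp10, an endoplasmic reticulum prolyl isomerase that assists lysine hydroxylation (1.74 ± 0.34, adjusted p = 0.000845). Of the 7 tested genes that remove propeptides, 3 were called, of which Adamts2 differed most, the procollagen N-proteinase (1.66 ± 0.35, adjusted p = 0.00166). Of the 5 other crosslinking and fibril-coating genes, 3 were called, led by Lum, the proteoglycan lumican (1.30 ± 0.37, adjusted p = 0.0165).

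The substrates of these enzymes were examined beside them, with no test of their fold changes against the members'. All 9 collagen and elastin genes examined had positive estimates at each day, and 6, 9, 4 and 7 were called at days 3, 6, 12 and 21, with a median log2 fold change of 1.09, 1.92, 1.22 and 1.81. Col1a1, Col5a2 and Col6a3 were called at all 4 days. Col1a1, which encodes the main chain of type I collagen, was 16.2-fold higher in HNKO at day 6 (log2 4.02 ± 0.67, adjusted p = 0.000197), against 9.95-fold for Lox and 2.49-fold for Serpinh1 in the same libraries. Col1a2 and Col3a1 were 5.49-fold and 6.33-fold higher at that day, below Lox and above Serpinh1. Col4a1, Col4a2 and Col5a1 differed less, by 1.17, 1.05 and 1.14 on the log2 scale at day 6, below Lox, Loxl1, Loxl2, Plod2 and Serpinh1.

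The ratio of enzyme RNA to that of 3 fibrillar collagen chains asks whether both differed by the same factor, and needs no scaling between libraries. These 3 chains had the largest day 6 differences of the 9 substrates. The summed counts of the 10 members were divided by those of Col1a1, Col1a2 and Col3a1. At day 6 the log2 ratio in WT was 0.54, 0.67, 0.39 and 0.45, so members outnumbered collagens, and in HNKO -0.79, -2.01, -2.18, -1.66 and -1.30. The sign of the ratio differed between the genotypes in each library of that day. The difference was -2.10 (two-sided exact permutation p = 0.00794, the smallest possible, adjusted over the 4 days 0.0159). The members' summed CPM was 141 ± 42 in HNKO and 99.7 ± 7.5 in WT (SD, n = 5 and 4), and that of the collagens 481 ± 307 and 70.3 ± 10.4.

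At day 12 the ratio differed by -1.13 (exact permutation p = 0.00433, adjusted 0.0159), with WT between -0.38 and 0.56 and HNKO between -1.75 and -0.42, so that all 6 HNKO libraries lay below all 5 WT libraries. At day 21 it differed by -1.51 (exact permutation p = 0.0179, the smallest possible with 3 against 5, adjusted 0.0239), with WT between -0.17 and 0.13 and HNKO at -2.25, -0.63 and -1.66. At day 3 the difference of -0.75 was within the spread (exact permutation p = 0.23), with HNKO from -2.14 to 0.27 and WT from -0.74 to 0.49. Plod1, which did not differ, gave 727 or more of the members' counts in each library. With each gene weighted the same on the log2 scale, the differences were -0.49, -1.88, -1.01 and -1.26 at days 3, 6, 12 and 21, and the last 3 stayed past the threshold. Against all 9 substrates summed, an alternative added after seeing the data, the differences were smaller, at -0.63, -1.31, -0.69 and -0.97, and against the other 6 alone they were -0.49, -0.78, -0.44 and -0.60.

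**Figure D4:**
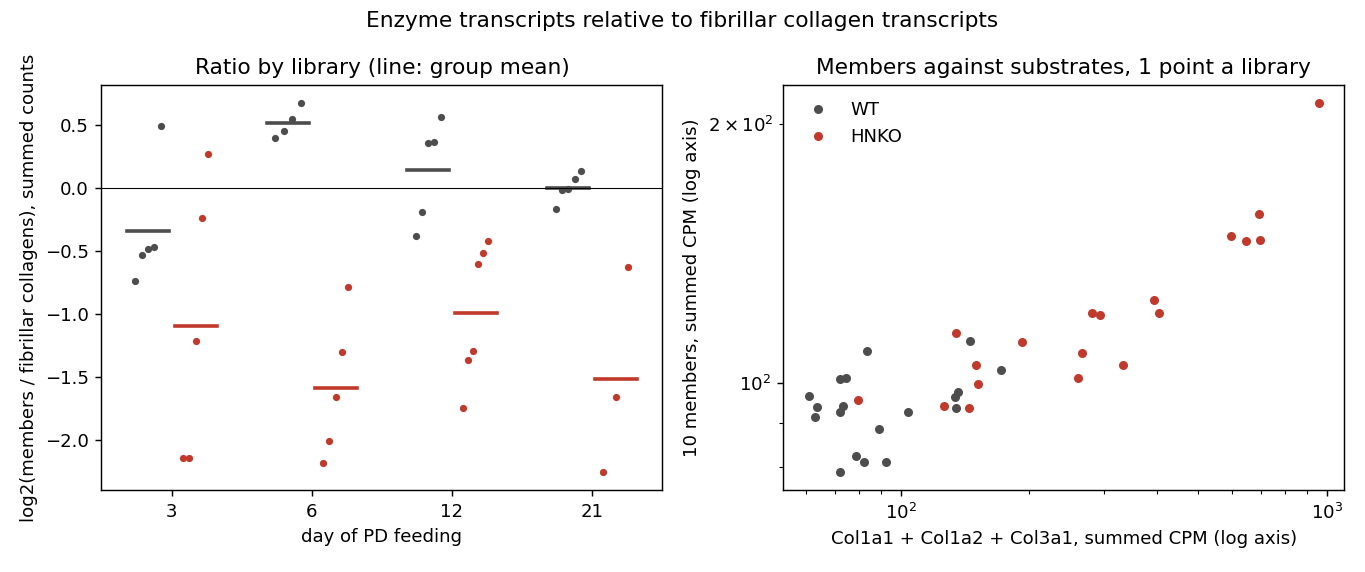
Left, the log2 ratio of the summed counts of the 10 members to those of Col1a1, Col1a2 and Col3a1 in each library by day, with group means as lines. Right, the summed CPM of both, on log axes, with 1 point a library: the collagens ranged from 70.3 in WT to 481 in HNKO as means of day 6, and the members from 99.7 to 141.

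Within HNKO 6 of the members, Lox, Loxl1, Loxl2, Loxl3, Plod2 and Serpinh1, were high or low in much the same libraries, and Plod1 and Loxl4 were not. HNKO 37 had the highest HNKO value of day 21 for all 10 members, HNKO 29 that of day 6 for 9 and HNKO 23 that of day 3 for 7 (but the lowest for Plod1), while HNKO 13 was highest at day 12 for 5. The low libraries recurred too, with HNKO 38 lowest at day 21 for 7 members and HNKO 22 at day 3 for 5. With the mean of each group removed, the Pearson correlation over the 19 HNKO libraries was 0.93 between Loxl2 and Serpinh1, 0.89 between Loxl1 and Plod2, 0.89 between Plod2 and Serpinh1 and 0.88 between Lox and Plod2. The highest correlation with another member was 0.35 for Plod1 (with P4ha2) and 0.47 for Loxl4 (with P4ha1). With Col1a1 the correlation in HNKO was 0.79 to 0.92 for Lox, Loxl1, Loxl2, Loxl3, Plod2 and Serpinh1, 0.56 and 0.59 for P4ha1 and P4ha2, 0.21 for Loxl4 and -0.0453 for Plod1, while in WT the first 6 ran from 0.11 to 0.67. For the same 6 the correlation in HNKO was 0.82 to 0.93 with Pdgfrb, a receptor of stellate cells and fibroblasts, and -0.73 to -0.41 with Alb, and in WT it was -0.46 to 0.52 and -0.44 to 0.16. With Acta2, a marker of myofibroblasts, the correlation was 0.31 to 0.59 in HNKO, below that with Pdgfrb, and -0.10 to 0.80 in WT. These values describe libraries that share depth, tissue sampling and group structure.

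**Figure D5:**
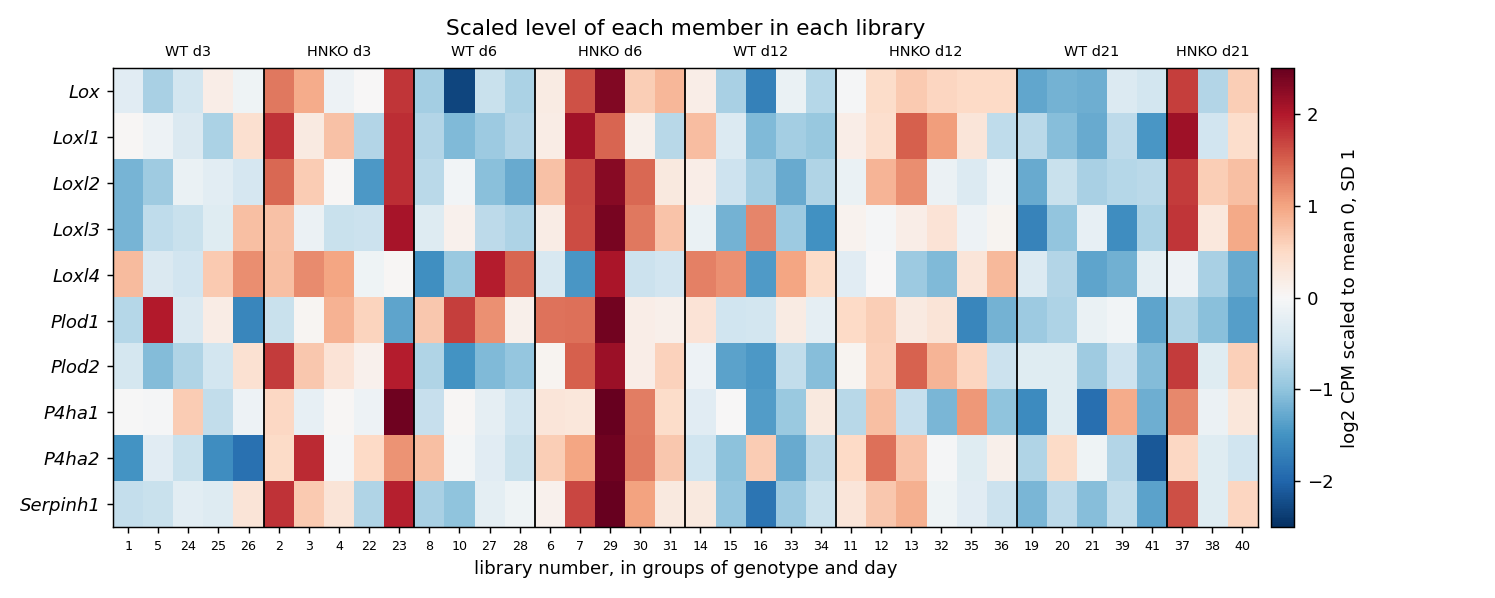
Log2 CPM of each member scaled to mean 0 and SD 1 over the 38 libraries, with libraries grouped by genotype and day. HNKO 29 (day 6), HNKO 23 (day 3) and HNKO 37 (day 21) were high for most members, and HNKO 22 and HNKO 38 were closer to WT, while Loxl4 and Plod1 followed other patterns.

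Outside the set, the 10 tested genes whose log2 CPM was most like the mean of the scaled members over the 38 libraries were Crtap (r = 0.948), Fstl1 (0.943), Vim (0.936), Anxa2 (0.928), Rab7b (0.926), Myof (0.924), Fbn1 (0.924), Fkbp10 (0.923), Trim47 (0.922) and Cx3cr1 (0.922). Crtap and Fkbp10 are themselves collagen-processing genes, Fbn1 encodes fibrillin-1 of elastic fibres and Vim the intermediate filament vimentin. Crtap was called higher at days 3 and 6 (0.57 and 0.69, adjusted p = 0.0248 and 0.00384).

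Markers of the cells that could hold these RNAs are given beside the members, and their part in the results was not tested. Hepatocyte markers were present in every library, as the labelled tissue has them, and their summed CPM at day 6 was 65890 to 112600 in HNKO and 127900 to 138800 in WT. Of 6 hepatocyte markers 2 were called lower at day 6, with Alb lower by 0.67 (SE 0.18, adjusted p = 0.0138). Of 8 markers of stellate cells and myofibroblasts 3, 3, 1 and 1 were called higher and 0, 0, 1 and 0 lower at days 3, 6, 12 and 21. Among those called at day 6, Cygb differed most (1.31 ± 0.30, adjusted p = 0.00371), and Pdgfrb was called at days 3 and 6 (0.80 and 1.11, adjusted p = 0.0358 and 0.00298). Their summed CPM, most of it from Reln, Rgs5 and Lrat, none of which was called at day 6, overlapped between the genotypes at each day, at 356.2 to 408.2 in HNKO and 344.0 to 401.2 in WT at day 6.

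Of 5 portal fibroblast markers 1, 3, 1 and 0 were called higher, with a sum at day 6 of 9.96 to 25.7 CPM in HNKO and 5.51 to 7.12 in WT, led by Mfap4 (1.75 ± 0.56, adjusted p = 0.0348). Of 5 cholangiocyte markers 4, 4, 3 and 2 were called higher, Epcam and Spp1 at all 4 days. Their sum at day 6 was 164 to 751 CPM in HNKO and 34.02 to 45.96 in WT, and did not overlap at any day. Most of this sum is Spp1 (osteopontin), at a mean of 8.11 log2 CPM in HNKO at day 6 against 1.26 to 2.38 for the other 4 markers, each of which overlapped between the genotypes at day 12. Spp1 was 9.32-fold higher at day 6 (3.22 ± 0.40, adjusted p = 6.75e-06). Macrophage markers gave 0, 2, 1 and 0 calls of 5 and a sum at day 6 of 547 to 708 CPM in HNKO against 416 to 545, of which Ptprc, which marks all leukocytes (CD45), differed most (1.04 ± 0.20, adjusted p = 0.000959). The other call at day 6 was Cd68 and the call at day 12 was Ptprc, while Adgre1, Clec4f and Cd5l were called at no day.

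Endothelial markers gave 0, 0, 1 and 0 higher and 0, 1, 1 and 0 lower calls of 6, with Kdr lower at day 6 by 0.37 (SE 0.10, adjusted p = 0.00934). Of 4 mesothelial markers none was called by edgeR, with sums of 0.126 to 11.2 CPM over the groups. No marker of any list was at 0 counts in all libraries of a group.

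Several collagen-modifying enzymes are also known as targets of the hypoxia response. Of 12 genes of that response 0, 1, 0 and 0 were called higher at days 3, 6, 12 and 21 and 1, 1, 0 and 0 lower. Adm (adrenomedullin) was higher at day 6 (1.16 ± 0.29, adjusted p = 0.00773), Pdk1 was lower at day 6 by 0.86 (SE 0.24, adjusted p = 0.0176) and Bnip3 was lower at day 3 by 0.66 (SE 0.17, adjusted p = 0.0243). Pdk1 and Bnip3, like Mia2 and Crtap above, are named here because of their values.

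All 3 HNKO libraries of day 21 belong to the second number series, and whether the series mark separate batches was not tested. Within the series, 7 comparisons of HNKO with WT at a day could be made. The difference of mean log2 CPM was positive in 7 of 7 for Lox (1.24 to 3.26), Loxl1 (0.71 to 1.83), Loxl2 (0.32 to 1.61), Loxl3 (0.04 to 0.74), Plod2 (0.91 to 1.61), P4ha2 (0.18 to 0.83) and Serpinh1 (0.30 to 1.26), in 6 for P4ha1, in 4 for Plod1 and in 2 for Loxl4. The log2 ratio to the collagens differed by -2.0 and -2.13 within the 2 series at day 6, by -1.18 and -1.16 at day 12, and by -1.49 in the second at day 21. With 2 or 3 libraries a side, the smallest two-sided exact permutation p within a series is 0.1 at best.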

How the data were processed

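Whole-liver RNA depleted of ribosomal RNA was sequenced as stranded 51-bp paired-end libraries. The deposited values are raw read counts per gene, which the authors made with STAR 2.7.2b on GRCm38 and featureCounts 1.6.4 with GENCODE M22, and tested with edgeR 3.26.0; whether counting used strand is not stated. The 40 count columns were matched to samples by their titles, and 0 columns were left unmatched. Groups came from the labels, and n counts libraries, so p-values measure the spread between these samples. Of 74 replicate pairs none was alike enough to be 1 library deposited in duplicate (chi-square per gene of at least 12.5).

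Counts of 38 libraries were analysed in R 4.3.3 with edgeR 4.0.16 (filterByExpr with a minimum count of 10, TMM factors, 1 mean per genotype and day, quasi-likelihood F test, Benjamini-Hochberg adjustment over 20297 genes). Log2 CPM used a prior count of 2. Exact permutation tests were two-sided. DESeq2 1.42.0, other scalings, filters, sample sets and leaving out each library served as alternatives. Depth, 16151037 to 64181492 counts, limits the low genes, chiefly Lox. Scripts were tested on simulated counts. Lengths, overlaps and coding bases came from GENCODE M21 and promoters from RefSeq. The members and gene lists were chosen with earlier results of these data known. Named beyond the members are genes called at all 4 days, the called gene of each list with the largest difference at day 6, the 10 most alike genes, the chains of the collagen ratio, partners that share exons or reads with a member, and Mia2, Pdk1, Bnip3, Pdgfrb, Col4a1, Col4a2, Col5a1, Reln, Rgs5, Lrat, the other macrophage markers and the 2 untested list genes, chosen after their values were seen. Acta2 is named beside Pdgfrb, also after its values were seen. For Lox no sequence is shown.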

Additional observations from a re-analysis of the deposited data

Results flagged for a closer look

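Among 77 groups of 4 to 6 libraries examined (10 members and the ratio to the collagens in 7 groups each), 3 held 1 library far from the rest by Dixon's criterion, where chance gives about 1 in 20. Lox in HNKO at day 12 had 1 low library, HNKO 11 at -0.02 log2 CPM against 0.61 to 0.89 in the other 5. P4ha1 in HNKO at day 3 had 1 high library, HNKO 23 at 4.56 against 3.85 to 4.05. The log2 ratio of members to fibrillar collagens in WT at day 3 had 1 high library, WT 5 at 0.49 against -0.74 to -0.47.

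The HNKO libraries 17 and 18 of day 21, which entered no comparison because they failed the submitters' quality control, held signal above all 5 WT libraries of that day for most members. On a log2 CPM scale computed with all 40 libraries, library 17 had Lox at 2.77, Loxl1 at 3.58, Loxl2 at 2.39, Loxl3 at 3.44, P4ha2 at 3.53, Plod1 at 5.69 and Serpinh1 at 4.36. Library 18 had Lox at 1.35, Loxl1 at 2.23, Loxl2 at 2.68, Loxl3 at 2.03, P4ha1 at 4.39, P4ha2 at 2.58, Plod2 at 2.84 and Serpinh1 at 4.86. The highest WT values were -0.42 for Lox, 0.87 for Loxl1, 1.89 for Loxl2, 1.81 for Loxl3, 4.18 for P4ha1, 2.34 for P4ha2, 5.50 for Plod1, 0.96 for Plod2 and 3.69 for Serpinh1. In library 17, however, Loxl4 and P4ha1 had 0 counts and Plod2 had 2, all below every WT library, which held at least 30 counts of Plod2. In library 18 Loxl4, at 1.12, was below the lowest WT library (2.09), and Plod1, at 5.44, was within the WT range. The 2 libraries are also the shallowest, with 12287423 and 15935527 counts, and the part of their quality in these values was not tested. How many of all tested genes lay above the WT range in these libraries was not counted.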

How the results depend on the processing

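No paired analysis was possible because each library number occurs once and is shared by no other group. The members called at day 3 numbered 4 with DESeq2, 0 with all 40 libraries and 1 in a fit of that day's groups alone, against 2; at day 12 they numbered 0 with all 40 libraries, against 1. Single members crossed the threshold too. Fits of the day's groups alone lost Plod2 at day 3 (adjusted p = 0.0673), Loxl1 and Loxl3 at day 6 (0.0576 and 0.0602) and Lox and Loxl3 at day 21 (0.0519 and 0.0527). All 40 libraries lost Loxl3 at day 6 (0.141), and no filter lost it at day 21 (0.0628). Serpinh1 at day 21 was gained with RLE size factors (0.049), DESeq2 (0.0236), 10 counts in every library (0.0497), all 40 libraries (0.0154), the day's groups alone (0.0342) and the edgeR 4 computation (0.0461). DESeq2 also gained Lox and Loxl2 at day 3 (0.0275 and 0.0381) and Plod2 at day 21 (0.0406), and the series covariate Lox at day 3 (0.0406) and P4ha2 at day 6 (0.0412). The other processing and crosslinking genes called numbered 2 with all 40 libraries and 2 with the groups of the day alone at day 3, against 6; 8 with all 40 libraries at day 6, against 13; 2 with DESeq2 and 0 with the groups of the day alone at day 12, against 1; and 6, 5 and 7 at day 21 with all 40 libraries, with the groups of the day alone and with a covariate for the number series, against 3. Leaving out each library gave 1 to 5, 3 to 6, 0 to 1 and 0 to 6 members called at days 3, 6, 12 and 21, and 0 to 10, 7 to 14, 0 to 2 and 0 to 6 of the other genes. The causes were not tested, and the share of all tested genes called under these alternatives was not computed. Estimates near 0 changed sign. Plod1 was 0.0048 at day 3 without a filter, 0.0175 with at least 10 counts in every library and 0.0041 with the groups of the day alone, 0.0209 and 0.0082 under the last 2 at day 12, and 0.0387 at day 21 with all 40 libraries. Loxl4 at day 21 was -0.49 with all 40 libraries and -0.19 with the series covariate. Leaving out each library, Plod1 ran from -0.0455 to 0.0673, from -0.0071 to 0.0738 and from -0.0245 to 0.0496 at days 3, 6 and 12, and Loxl4 from -0.0019 to 0.25, from -0.85 to 0.086 and from -0.17 to 0.21 at days 3, 6 and 21. The ratio to the collagens, tested within a number series, was -2.0 and -2.13 at day 6, -1.18 and -1.16 at day 12 and -1.49 at day 21, with too few libraries to pass the threshold. Against the 6 other substrates, an alternative added after seeing the data, it passed at day 3 too (-0.4871, exact permutation p = 0.0476 before adjustment). The ratio to the 3 chains ranged from -1.09 to -0.49, -2.30 to -1.95, -1.26 to -0.98 and -1.96 to -1.15 at days 3, 6, 12 and 21 with each library left out. No member was called in the interaction of genotype and day or between days 21 and 3 under any alternative run. Requiring 10 counts in every library removed Lox from the test.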
